A study of Mus musculus with 4 samples.

Results

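The 10 genes described here encode cathepsins and legumain, the proteases of the lysosome: Ctsa, Ctsb, Ctsc, Ctsd, Ctse, Ctsh, Ctsl, Ctss, Ctsz and Lgmn. They were taken by name from a table of 27998 genes, and all 10 had UMIs, unique molecular identifiers that count each captured RNA molecule once. Their levels were read in FACS-sorted CD11b+ splenocytes of mice by deposited cell type. In the cells the study sets apart as MoMacDC (its types MoMacDC_c1, MoMacDC_c2, MoMacDC_c4, MoMacDC_c5 and progenitor DC, 6075 cells) they were also read by RNA cluster and by CD115hi subset. One library came from the steady state (4827 cells) and one from mice given 3 once-daily injections of GM-CSF (6804 cells). Per the study's methods, mice aged 8 to 12 weeks received 10 µg subcutaneously each day and cells were isolated 24 hours after the last injection. C57BL/6 is the strain of its wild-type mice and is not named separately for these libraries. How many animals gave each library is not given in the sources used here. Both libraries were CITE-seq libraries, in which antibodies with DNA tags are counted in the same droplets as the RNA.

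With 1 library per condition there was no replicate and no test between conditions, and the treatment and the library cannot be told apart. Levels are CPM: a gene's UMIs in all cells of a group, divided by all UMIs of these cells and scaled to 1000000. The kit tags the 3′ end of each molecule, so CPM does not grow with transcript length. Sums carry exact Poisson 95% intervals, ratios a 95% interval derived exactly from the binomial split of their UMIs, and shares of cells exact Clopper-Pearson 95% intervals. All of them cover counting error only. The call rule asked for 50 or more UMIs in both groups together and a ratio of 2-fold or more, computed after adding 0.5 counts to either sum. The libraries held 22358903 and 35007567 UMIs (median 3371 and 4916 per cell), and 8 cell barcodes occurred in both. Scrublet called 3.15% and 2.73% of the cells doublets, and they were kept except in an alternative.

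The deposited cell type names were checked against marker lists, and some values touch the results below. The cluster deposited as cDC2-A (214 steady-state and 20 GM-CSF cells) held NK cell markers at 19168 and 19911 CPM and cDC2 markers at 19.8 and 15.9 CPM, so it is called the NK-marker cluster here. All 6 NK cell markers also had UMIs in the 43 steady-state cells of MoMacDC_c4 (11946 CPM in sum), against 1.57 CPM in its 595 GM-CSF cells. The steady-state macrophages held erythroid markers at 2159 CPM, and all 5 of those markers were at 0 in the GM-CSF macrophages. MoMacDC_c1 held classical monocyte markers (3089 CPM in steady state, 785 CPM after GM-CSF), MoMacDC_c5 non-classical ones (3685 and 1771 CPM) and progenitor DCs those of DC progenitors (1986 and 1035 CPM). After GM-CSF the classical monocyte markers did not set MoMacDC_c1 apart, at 849 CPM in MoMacDC_c4 and 1480 CPM in neutrophils. Nor did the DC progenitor markers set progenitor DCs apart from activated DCs (1904 CPM in 8 steady-state and 976 CPM in 20 GM-CSF cells).

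Lysosomal proteases are made as inactive precursors, sorted to acidic compartments and activated there by one another or by themselves. In antigen-presenting cells they cut endocytosed proteins into peptides and degrade the invariant chain (Cd74), which guards the groove of MHC class II until a peptide can be loaded. Endopeptidases such as cathepsins B, D, L and S and legumain cut inside a protein chain, while cathepsins A, C, H and Z trim its ends, and cystatins hold the cysteine cathepsins in check.

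On GRCm38 (mm10), with gene bounds from GENCODE vM21, all 10 are protein-coding genes on 8 chromosomes. The cysteine proteases are Ctsb (chr14:63122462-63145923, plus strand), Ctsc (chr7:88278085-88310888, plus), Ctsh (chr9:90054152-90076089, plus), Ctsl (chr13:64359337-64370890, minus), Ctss (chr3:95526786-95556403, plus), Ctsz (chr2:174427493-174439039, minus) and the asparaginyl endopeptidase Lgmn (chr12:102394084-102439813, minus). The aspartic proteases are Ctsd (chr7:142375911-142388038, minus) and Ctse (chr1:131638306-131675505, plus), and the serine carboxypeptidase is Ctsa (chr2:164832873-164841032, plus).

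RefSeq promoter windows on GRCm38.p6, from 250 bases before to 50 bases after a start site, were given for 7 of the 10 genes (9 windows). Windows of 4 genes are printed. They are the 2 genes with TCACGTGA, an E-box of the TFEB family, and the 2 with the core site of the myeloid factor PU.1. Capitals mark matches to TCACGTGA or CACGTG, a shorter form that lies inside it, and to GAGGAAGT or its reverse complement. The Ctsa window is chr2:164833523-164833822 (plus strand), the Ctsd window chr7:142387778-142388077 (minus), the Ctsc window chr7:88277835-88278134 (plus) and the Ctss window chr3:95526536-95526835 (plus), each written 5′ to 3′ on the strand of its gene.
Ctsa: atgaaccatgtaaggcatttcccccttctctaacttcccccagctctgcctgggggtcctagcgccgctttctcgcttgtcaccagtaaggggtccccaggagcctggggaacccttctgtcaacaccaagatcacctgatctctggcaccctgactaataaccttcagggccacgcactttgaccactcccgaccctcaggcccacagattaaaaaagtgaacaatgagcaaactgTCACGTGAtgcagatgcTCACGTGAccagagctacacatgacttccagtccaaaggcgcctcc
Ctsd: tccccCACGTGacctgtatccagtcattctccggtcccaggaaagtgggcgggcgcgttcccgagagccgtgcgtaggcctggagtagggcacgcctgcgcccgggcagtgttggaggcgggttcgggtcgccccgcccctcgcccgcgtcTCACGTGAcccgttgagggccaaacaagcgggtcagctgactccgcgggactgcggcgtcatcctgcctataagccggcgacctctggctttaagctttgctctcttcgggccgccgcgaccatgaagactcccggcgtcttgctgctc
Ctsc: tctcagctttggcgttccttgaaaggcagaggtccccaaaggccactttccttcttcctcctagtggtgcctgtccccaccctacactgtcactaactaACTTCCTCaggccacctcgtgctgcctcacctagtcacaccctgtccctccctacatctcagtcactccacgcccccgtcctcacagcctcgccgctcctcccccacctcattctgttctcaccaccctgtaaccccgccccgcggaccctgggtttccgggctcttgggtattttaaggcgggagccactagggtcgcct
Ctss: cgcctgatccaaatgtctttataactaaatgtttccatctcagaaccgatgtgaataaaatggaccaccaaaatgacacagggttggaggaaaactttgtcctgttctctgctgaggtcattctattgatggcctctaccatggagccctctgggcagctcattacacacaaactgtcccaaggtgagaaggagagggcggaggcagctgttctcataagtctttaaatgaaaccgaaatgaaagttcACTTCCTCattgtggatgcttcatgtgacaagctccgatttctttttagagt
TCACGTGA was found at 2 places of this Ctsa window, of which the first began 13 bases upstream of the start site, and once in the Ctsd window, 99 bases upstream. The start sites of this Ctsa window and of the Ctsd window lie inside the gene bounds given above, and so do these TCACGTGA matches. The other Ctsa window (chr2:164832622-164832921), at the start of the gene, held none of these motifs. TCACGTGA occurred in 2 of the 9 member windows and in 0.974% of all 32851 windows. CACGTG, also counted where it lies inside TCACGTGA, occurred in 4 of the 9 and in 7.15% of all. GAGGAAGT was read on the other strand 151 bases upstream in Ctsc and from 2 bases upstream in Ctss, in 2 of the 9 windows and in 3.2% of all. A match of letters is a description and shows no binding, and no window was given for Ctsb, Ctse and Ctsh.

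Macrophages held the highest level of any cell type in both libraries for 6 of the 10 genes, Ctsb, Ctsc, Ctsd, Ctsl, Ctsz and Lgmn, although they numbered only 25 and 22 cells. Ctsb, a cysteine protease that both cuts inside chains and trims their ends, stood at 6964 CPM (6447 to 7512) in steady-state macrophages and 7111 CPM (6371 to 7913) in GM-CSF macrophages. MoMacDC_c5, the cluster with non-classical monocyte markers, came next at 2223 and 954 CPM, then MoMacDC_c1 at 963 and 375 CPM. In the NK-marker cluster Ctsb stood at 112 and 63.8 CPM. Lgmn, which also cleaves other cathepsins to their mature forms, stood at 1816 CPM (1557 to 2106) and 1503 CPM (1174 to 1895) in macrophages and at no more than 169 CPM in any other cell type of either library. GM-CSF neutrophils held 1 Lgmn UMI in 893 cells (0.203 CPM). Lgmn had 0 UMIs in the 39 T cells and 20 cells of the NK-marker cluster after GM-CSF, where 3 counts would give 30.9 and 47.8 CPM.

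Ctsl, the endopeptidase best known for cleaving the invariant chain in the thymic cortex, stood at 228 CPM (143 to 346) and 190 CPM (87.1 to 362) in macrophages. Those values rested on 22 and 9 UMIs. The next highest cell types, MoMacDC_c1 at 35.9 and 35.0 CPM and GM-CSF granulocytes at 35.2 CPM, lay several-fold below and did not differ from each other beyond their intervals. Ctsd, the main aspartic protease of the lysosome, was also highest in macrophages (2418 and 3259 CPM) but had a second site in granulocytic and NK-marker cells. It stood at 1272 and 1465 CPM in granulocytes, at 1097 and 1132 CPM in the NK-marker cluster and at 291 and 429 CPM in neutrophils. In MoMacDC_c1, MoMacDC_c2, MoMacDC_c4 and MoMacDC_c5 it did not exceed 232 CPM, apart from the 43 steady-state cells of MoMacDC_c4, where it stood at 608 CPM.

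Ctss, the protease that completes invariant chain degradation in bone marrow-derived antigen-presenting cells, was high in MoMacDC_c1 and MoMacDC_c5. It stood at 1861 CPM (1834 to 1889) in steady-state MoMacDC_c1, 1515 CPM in macrophages and 1502 CPM in MoMacDC_c5, and the last 2 did not differ beyond their intervals. After GM-CSF the same cell types held 1112, 952 and 1226 CPM. In neutrophils Ctss stood at 84.3 and 12.4 CPM. At least 1 Ctss UMI was found in 99.5% of steady-state MoMacDC_c1 cells (median 7322 UMIs per cell), against 4.7% of GM-CSF neutrophils (median 4404 UMIs), a share that free RNA in the droplets can also give.

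Ctsc, the dipeptidyl peptidase that activates the serine proteases of granules, stood at 1578 and 1672 CPM in macrophages and at 500 and 624 CPM in MoMacDC_c1. It stood at 11.2 and 49.3 CPM in granulocytes and 12.8 and 15.6 CPM in neutrophils. The aminopeptidase gene Ctsh was highest in activated DCs, at 891 CPM (698 to 1120, 8 cells) and 1200 CPM (1005 to 1421, 20 cells), and lowest in T cells at 19.3 and 10.3 CPM. The carboxypeptidase gene Ctsz stood between 464 and 611 CPM in MoMacDC_c1, MoMacDC_c2, MoMacDC_c5 and progenitor DCs of both libraries, and reached 1206 CPM in GM-CSF macrophages and 1048 CPM in GM-CSF activated DCs, whose intervals overlapped. Ctsa, which also protects lysosomal sialidase and galactosidase from degradation, went from 35.7 CPM in neutrophils to 358 CPM in MoMacDC_c1 and 356 CPM in MoMacDC_c5 in steady state, and the last 2 did not differ beyond their intervals. Ctse, an endosomal aspartic protease, did not exceed 22.6 CPM in any cell type. It was highest in granulocytes (22.6 and 20.7 CPM) and had 0 UMIs in steady-state progenitor DCs, where 3 counts would give 2.43 CPM.

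**Figure D1:**
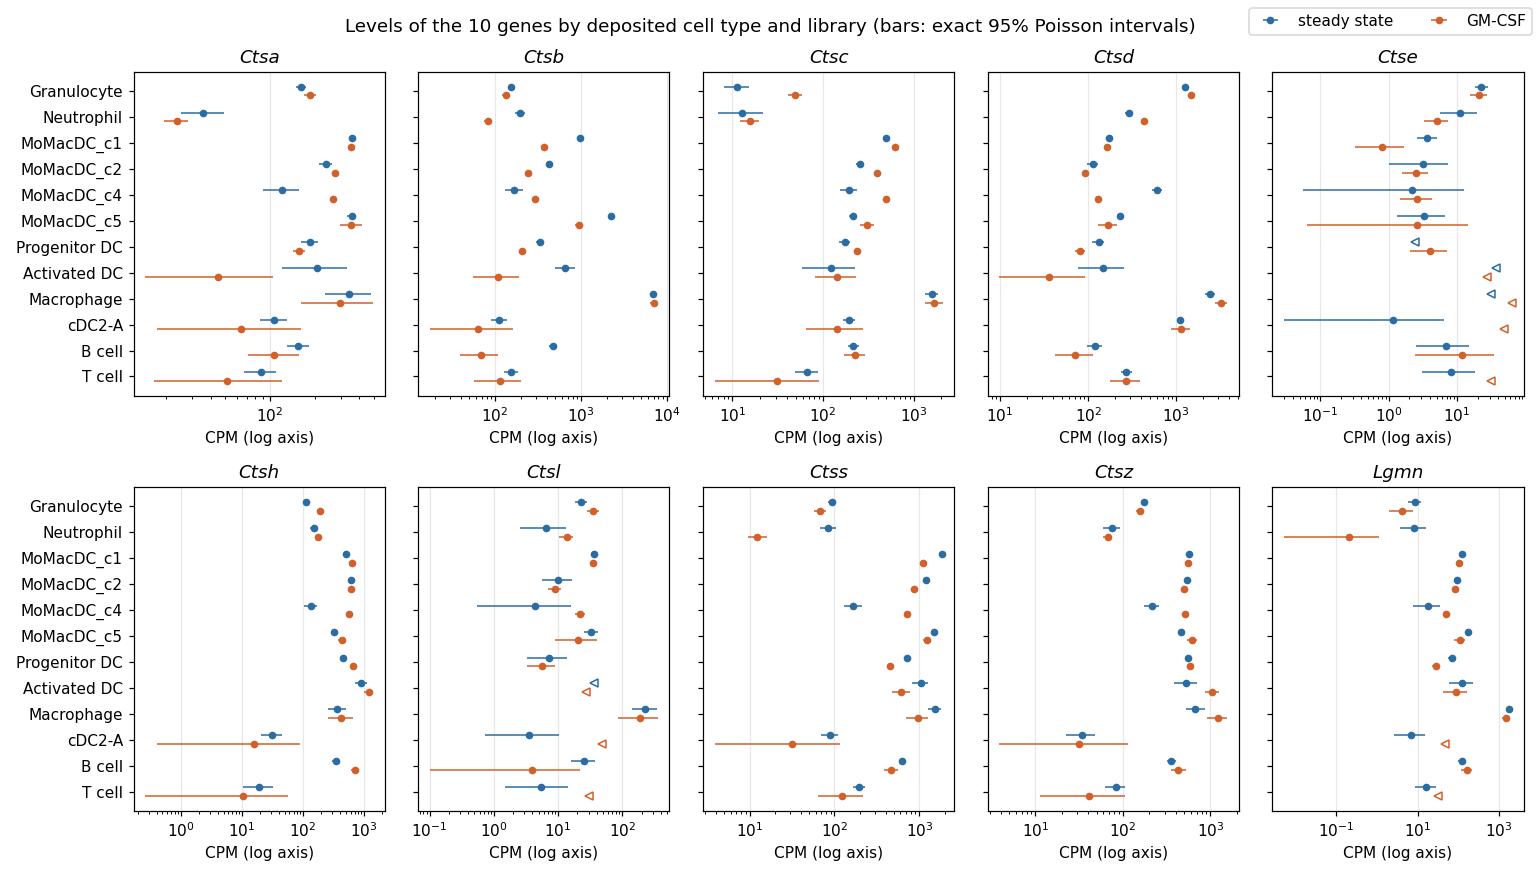
Levels of the 10 genes in CPM (log axis, a scale of its own for each gene) by deposited cell type, for the steady-state and the GM-CSF library, with exact 95% Poisson intervals. Open triangles mark groups with 0 UMIs at the level that 3 counts would give. Macrophages lie farthest right for Ctsb, Ctsc, Ctsd, Ctsl, Ctsz and Lgmn, and granulocytes and the cluster deposited as cDC2-A come next for Ctsd.

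GM-CSF and steady-state MoMacDC cells (3940 and 2135 cells) differed most in Ctsb. It stood at 301 CPM after GM-CSF and 1011 CPM in steady state, 3.36-fold lower (interval 3.27 to 3.45). Ctss stood at 871 against 1595 CPM, 1.83-fold lower (1.80 to 1.87), and Lgmn at 77.2 against 121 CPM, 1.57-fold lower (1.47 to 1.67). Ctsd (124 against 185 CPM, ratio 0.670) and Ctsl (19.8 against 29.4 CPM, 0.672) were lower by a like factor. The Ctse ratio (2.14 against 3.21 CPM, 0.667) rested on 58 and 48 UMIs. Its interval was 0.447 to 0.999, and it was 1.17 after thinning to 1000 UMIs per cell. Ctsa (286 against 324 CPM, 0.882) and Ctsz (531 against 539 CPM, 0.984) were near 1, and the Ctsz interval (0.958 to 1.01) held 1. Ctsc (467 against 396 CPM, 1.18) and Ctsh (612 against 479 CPM, 1.28) were higher. In all, 1 of the 10 genes was called lower, against 9.46% of the 10860 genes tested, and 0 were called higher, against 8.66%. Leaving out MoMacDC_c4, a choice made after seeing its NK cell markers, gave Ctsb a ratio of 0.293, Ctsd one of 0.710 and the same counts of calls.

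Since the libraries held the clusters of MoMacDC cells in different numbers, the ratios were also taken within the 7 clusters with at least 50 cells in each library. Ctsb had an interval below 1 in 7 of 7, with ratios from 0.259 in cluster 11 to 0.608 in cluster 3. That for Ctss lay below 1 in 7 of 7 as well (0.494 to 0.783), and that for Lgmn in 4 of 7, with the lowest ratio in cluster 9 (0.357, 0.242 to 0.52). Ctsc was above 1 in 6 of 7 (1.07 to 2.0) and Ctsh in 5 of 7, with cluster 6 below 1 (0.833). Ctsd and Ctsl did not keep the direction they had over all MoMacDC cells. Ctsd was lower over all cells, but within clusters its interval lay above 1 in 3 of 7 (1.41 in cluster 2, 1.52 in cluster 5 and 1.43 in cluster 6) and below 1 in 0 of 7. The Ctsl interval lay above 1 in clusters 5 (1.5) and 6 (1.77) and below 1 in 0 of 7. Ctsz was above 1 in 2 clusters and below in 2, and Ctsa above in 1 and below in 3.

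**Figure D2:**
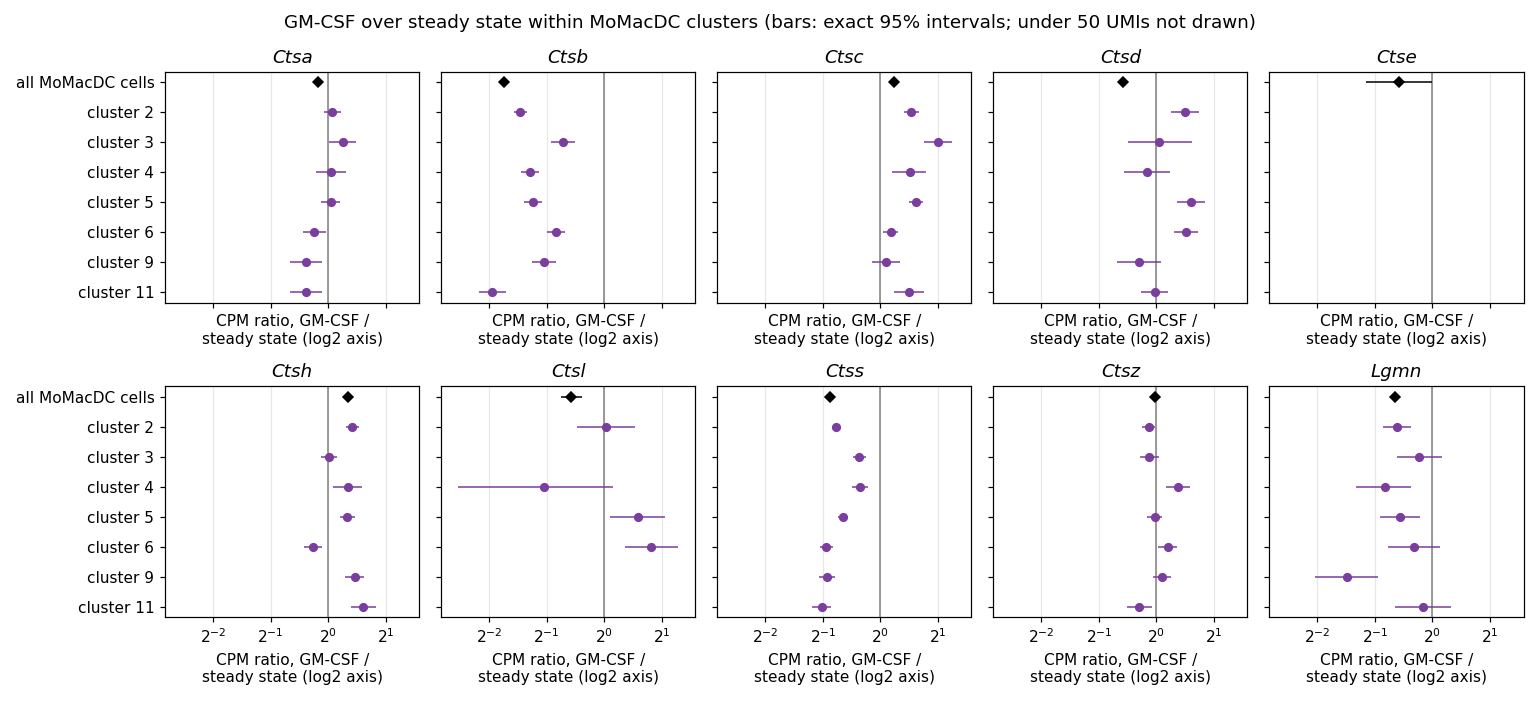
CPM ratio of GM-CSF over steady state (log2 axis, grey line at 1) in all MoMacDC cells (diamonds) and in 7 of their clusters (circles), with exact 95% intervals, for values resting on at least 50 UMIs. All Ctsb and Ctss points lie left of the line, Ctsc points lie right of it, the Ctsd diamond lies left of all its circles and the Ctsl diamond left of 3 of its 4 circles.

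Levels also varied among the clusters with at least 50 cells in a library. Ctsb in steady state ran from 340 CPM in cluster 3 to 2306 CPM in cluster 4, 6.79 times as high, and cluster 4 stayed highest after GM-CSF at 940 CPM, with cluster 12 lowest at 189 CPM. Ctsd was highest in cluster 11 of both libraries, at 395 CPM (361 to 431) and 388 CPM (338 to 444), and lowest in cluster 3 at 48.1 and 49.8 CPM. Ctsl had its widest spread after GM-CSF, from 3.96 CPM in cluster 12 (1.45 to 8.61) to 78.8 CPM in cluster 6 (61.2 to 99.8). Cluster 6 was also highest for Ctsc in both libraries, at 690 and 781 CPM, where cluster 5 (762 CPM) did not differ from it beyond the intervals after GM-CSF. Ctss in the GM-CSF library was lowest in clusters 12 and 9, at 378 and 537 CPM, against 1242 and 1232 CPM in clusters 4 and 2. The same clusters 9 and 12 held Lgmn at 29.6 and 31.0 CPM and Ctsa at 157 and 164 CPM, their lowest values, and Ctsh at 647 and 668 CPM, near its highest (690 CPM in cluster 3). Ctsh and Ctsz varied least of the members after GM-CSF, 1.65-fold and 1.81-fold between the highest and the lowest of 13 clusters. The clusters were drawn from the same counts, so these levels are a description of them.

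Within P-I cells, the CD115hi cells that the study calls classical monocytes, 139 steady-state and 187 GM-CSF cells were compared. Ctsb stood at 972 CPM (914 to 1032) in steady state and 418 CPM (385 to 453) after GM-CSF, a ratio of 0.430 (0.388 to 0.476). Ctss stood at 1795 and 1116 CPM, a ratio of 0.622 (0.581 to 0.665). Ctsc was higher, at 381 and 617 CPM (1.62, 1.44 to 1.83), and Ctsl stood at 19.2 and 33.7 CPM (1.75, 1.03 to 3.09) on 21 and 47 UMIs. Ctsh stood at 509 and 589 CPM (1.16, 1.04 to 1.29). The intervals of Ctsa, Ctsd, Ctsz and Lgmn held 1, and Ctse had 3 and 1 UMIs. Of 9 members tested 1 was called lower, against 7.12% of 5774 genes, and 0 higher, against 4.99%. With mitochondrial, ribosomal, S100a8 and S100a9 UMIs left out of the totals, these shares of all genes were 5.32% lower and 6.18% higher. The call of Ctsb ended when every cell was thinned to 1000 UMIs, which gave a ratio of 0.544.

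The GM-CSF library also held 126 P-III cells and 313 P-IV cells, both defined by the study as Ly6C- and MHC II+. P-IV is the CD301b+ subset that the study calls GM-CSF-induced DCs. In P-I, P-III and P-IV, in this order, Ctsb stood at 418, 400 and 262 CPM, Ctsc at 617, 498 and 367 CPM, and Ctsd at 188, 134 and 107 CPM. Ctss stood at 1116, 1018 and 887 CPM, Lgmn at 110, 104 and 75.6 CPM, and Ctsa at 359, 345 and 253 CPM. Ctsz stood at 571, 529 and 509 CPM. Ctsl stood at 33.7, 18.9 and 7.56 CPM, on 47, 14 and 17 UMIs. Ctsh stood at 589, 619 and 564 CPM, and Ctse had 1, 0 and 3 UMIs.

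P-IV over P-I gave Ctsl the lowest ratio, 4.46-fold lower (0.224, 0.121 to 0.398), and it was the 1 member called lower of 9 tested, against 3.53% of 6803 genes. None was called higher (0 of 9, against 3.63%). The ratio was 0.571 (0.477 to 0.682) for Ctsd, 0.594 (0.540 to 0.655) for Ctsc, 0.627 (0.558 to 0.704) for Ctsb, 0.689 (0.551 to 0.863) for Lgmn and 0.705 (0.624 to 0.796) for Ctsa. A single cell held 54 of the 241 Ctsd UMIs of P-IV (22.4%), and 56 of its 589 Ctsb UMIs (9.51%) likewise lay in 1 cell. The intervals do not cover this spread between cells. Ctss (0.795) and Ctsz (0.892) were closer to 1, and the interval of Ctsh (0.957, 0.876 to 1.05) held 1. Among cells with at most 5% mitochondrial UMIs, and among cells in G1, Ctsl had under 50 UMIs and no call could be made, while its ratio was 0.242 and 0.229. With every cell thinned to 1000 UMIs, Ctsd passed the 2-fold rule instead (0.469), against 3.60% of all genes lower. Ctsl then had a ratio of 0.317, with a UMI in 6 P-I and 3 P-IV cells, too few for a call.

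P-III over P-I gave 0 calls among 9 members, against 1.11% of 5233 genes higher and 2.71% lower. Its lowest ratios were Ctsl at 0.562 (0.286 to 1.04) and Ctsd at 0.713 (0.560 to 0.901), and the intervals of Ctsa, Ctsb, Ctsh, Ctsl, Ctsz and Lgmn held 1. Among cells with at most 5% mitochondrial UMIs Ctsd was called lower, with a ratio of 0.488, against 2.47% of all genes. P-IV over P-III gave 0 calls among 8 members, against 1.91% of 6216 genes higher and 1.01% lower. Here the intervals lay below 1 for Ctsb (0.655, 0.568 to 0.755), Lgmn (0.726), Ctsa (0.733), Ctsc (0.737) and Ctss (0.871), and those of Ctsd, Ctsh and Ctsz held 1. The Ctsd ratio was 0.801, with 22.4% of the P-IV UMIs in a single cell, and 0.685 with each cell weighed the same. P-II, the subset that the study calls non-classical monocytes, held 8 cells in each library and no ratio was taken. Ctsb stood there at 1908 CPM (1515 to 2371) in steady state and 755 CPM (468 to 1155) after GM-CSF. In the steady-state library, the 12 cells of P-III and 7 cells of P-IV held Ctsb at 1587 and 1383 CPM, above each of the GM-CSF subsets of the same name.

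**Figure D3:**
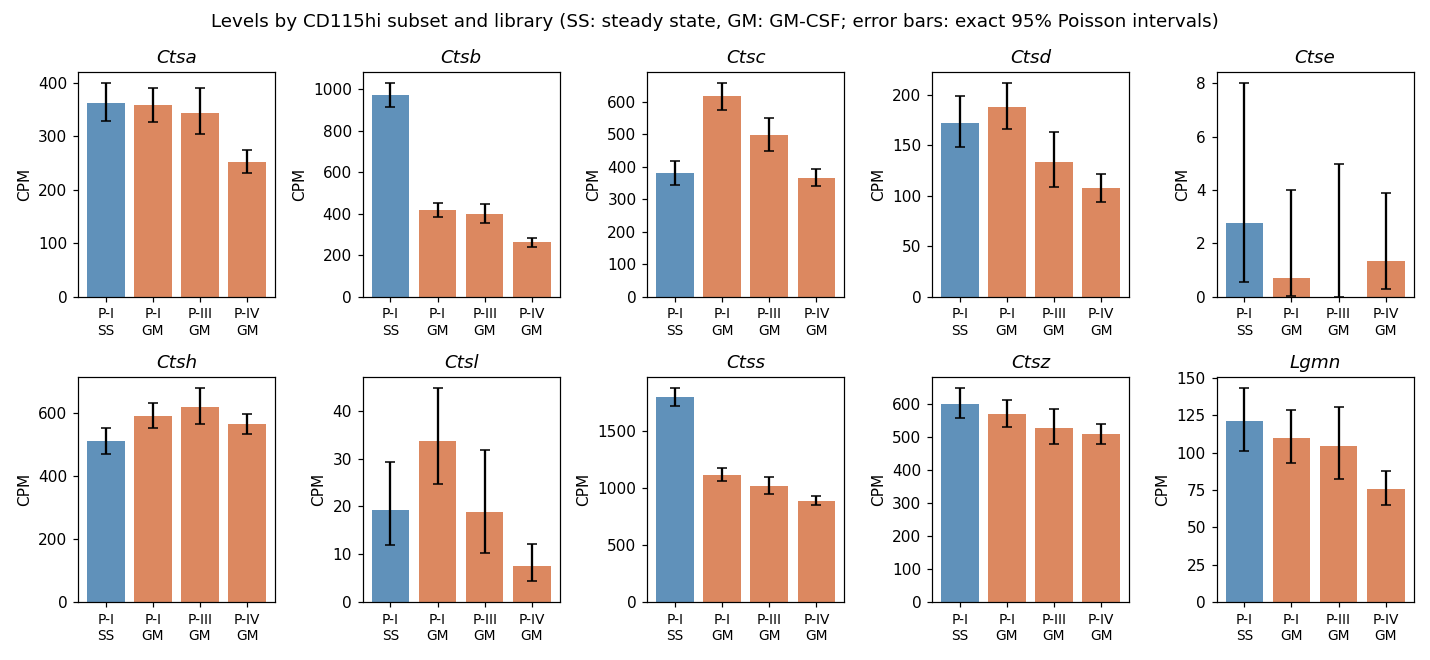
CPM of the 10 genes in the P-I subset of the steady-state library (SS) and in 3 subsets of the GM-CSF library (GM), with exact 95% Poisson intervals and linear axes from 0. The GM-CSF bar of P-I is lower than the steady-state bar for Ctsb and Ctss and higher for Ctsc, and Ctsl is lowest in P-IV at 7.56 CPM.

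The antibody tags, some of which the authors also used to gate the subsets, allowed all MoMacDC cells to be ordered without their RNA. The cells of each library were ranked by their MHC II tag count and split into 4 bins of equal size (985 GM-CSF and 533 or 534 steady-state cells each). In the GM-CSF library, Ctsl went from 41.7 CPM (36.7 to 47.2) in the lowest bin over 19.9 and 14.3 to 7.46 CPM (5.67 to 9.65) in the highest, and Ctsc from 608 to 349 CPM. Ctss went from 998 to 739 CPM, Ctsa from 328 to 251 CPM, Ctsb from 422 to 264 CPM and Ctsd from 202 to 108 CPM. Ctsb and Ctsd were lowest in bin 3, at 252 and 90.6 CPM. Ctsz had nearly the same level at both ends (536 and 550 CPM). Ctsh was lowest in the lowest bin and did not rise throughout (555, 641, 638 and 609 CPM from the lowest to the highest). In steady state Ctsl (38.7 to 16.6 CPM), Ctsc (511 to 237 CPM) and Ctss (1813 to 1187 CPM) were also lower in the highest bin, while Ctsb was highest in bin 3 (1279 CPM). In every MHC II bin Ctsb and Ctss stood lower in the GM-CSF than in the steady-state library. Ranking by the CD11c tag gave Ctsl 41.3 CPM in the lowest and 6.73 CPM in the highest GM-CSF bin. Tag counts also follow the size and depth of a cell, and the median UMIs per cell were 6164 and 7294 in the lowest and highest MHC II bin of that library.

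**Figure D4:**
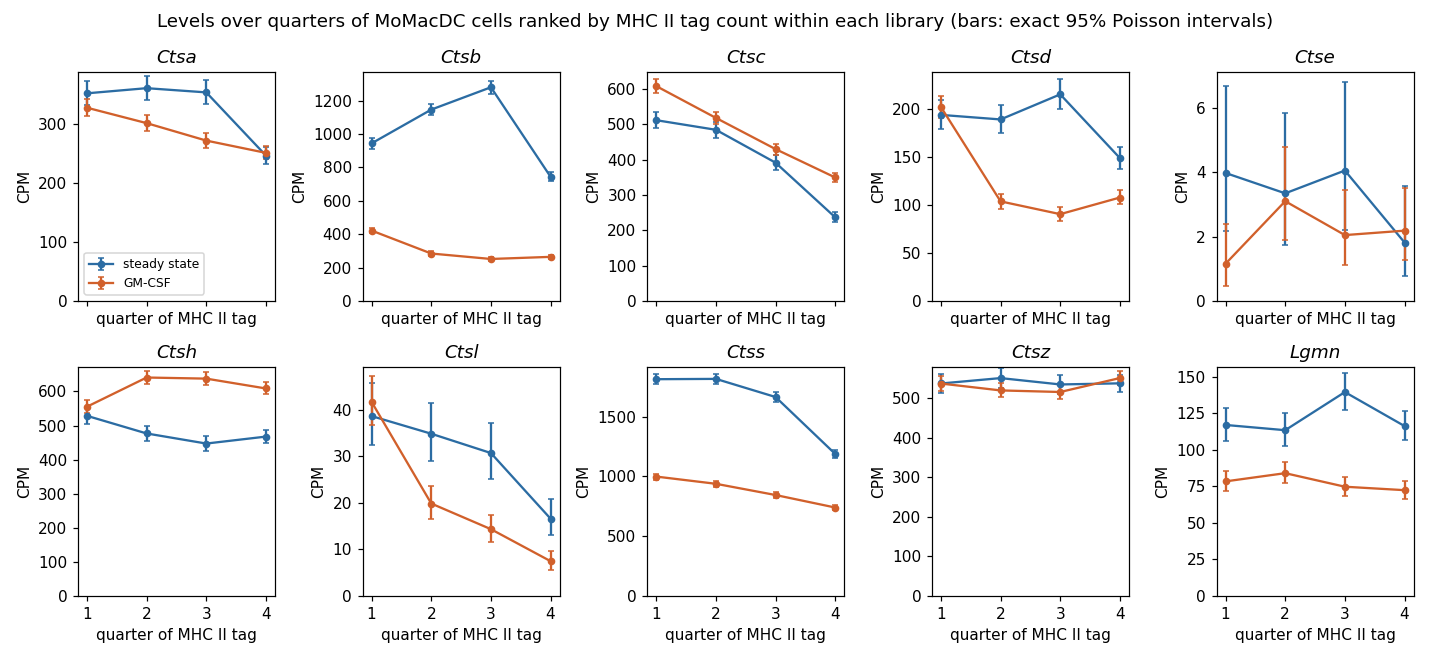
CPM of the 10 genes over 4 bins of equal size of MoMacDC cells ranked by MHC II tag count within each library, with exact 95% Poisson intervals. The GM-CSF line lies below the steady-state line at every bin for Ctsb, Ctss and Lgmn, and both lines of Ctsc and Ctsl end lower than they begin. Bins of the same rank differ in tag count between the libraries.

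Granulocytes (1791 GM-CSF and 1929 steady-state cells) held Ctsc at 49.3 CPM (40.9 to 59.0) after GM-CSF and 11.2 CPM (8.01 to 15.1) in steady state, a ratio of 4.42 (3.08 to 6.47), and 6.09% and 1.87% of these cells had a Ctsc UMI. This was the 1 member of 9 called higher, against 7.29% of 6257 genes, and 0 were called lower, against 3.2%. Ctsh (189 against 111 CPM, 1.70) and Ctsl (35.2 against 23.1 CPM, 1.52) were also higher, and Ctss was lower (68.0 against 93.6 CPM, 0.726). Ctsd stood at 1465 and 1272 CPM (1.15, 1.10 to 1.20). The median depth was 1229 UMIs per cell after GM-CSF and 1770 in steady state. At 1000 UMIs per cell, with 496 and 8 shallower cells left out, the shares with a Ctsc UMI were 5.48% (4.31 to 6.87) and 0.989% (0.597 to 1.54). Neutrophils at the same depth had shares of 1.36% (0.707 to 2.37) and 0.685% (0.0173 to 3.76). All 5 tested genes of MHC class II processing were also called higher in the granulocytes, among them H2-Aa (71.7 against 21.0 CPM) and Cd74 (90.8 against 42.2 CPM), while classical monocyte markers stood at 651 against 1104 CPM and non-classical ones at 165 against 232 CPM. The part of RNA from other cells in the Ctsc value was not tested.

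Neutrophils (893 GM-CSF and 146 steady-state cells) held Ctsb at 82.3 CPM after GM-CSF and 194 CPM in steady state, a ratio of 0.423 (0.358 to 0.502), and Ctss at 12.4 and 84.3 CPM (0.147, 0.104 to 0.205). Those 2 of 8 members were called lower, against 2.48% of 6489 genes, and 0 were called higher, against 3.62%. Ctsd was higher, at 429 against 291 CPM (1.48, 1.31 to 1.67). One of the 146 steady-state cells held 19.6% of their 92 Ctss UMIs, and the ratio was 0.346 with each cell weighed the same and 0.201 without called doublets. Non-classical monocyte markers, all 5 with UMIs, stood at 190 CPM in steady-state and 21.1 CPM in GM-CSF neutrophils, and their part in the Ctsb and Ctss values was not tested. After thinning to 1000 UMIs per cell Ctsb had a ratio of 0.559 and Ctss too few UMIs for a call.

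In B cells (196 and 79 cells) Ctsb stood at 472 CPM in steady state and 67.7 CPM after GM-CSF, and Ctsh at 341 and 709 CPM. The steady-state B cells also held classical and non-classical monocyte markers at 708 and 716 CPM, against 163 and 59.8 CPM after GM-CSF, and the part of these in the Ctsb value was not tested. Progenitor DCs (152 and 393 cells) held Lgmn at 68.8 CPM (54.9 to 85.0) and 27.8 CPM (22.2 to 34.5), a ratio of 0.405 (0.296 to 0.554). In the same cells Ctsh stood at 449 and 652 CPM, Ctsb at 332 and 206 CPM and Ctss at 717 and 447 CPM. Non-classical monocyte markers (5 of 5 with UMIs in both libraries) stood there at 723 and 99.3 CPM and neutrophil markers (9 of 9) at 9219 and 2092 CPM, and their part in these values was not tested. The 25 and 22 macrophages were too few for a ratio, and their Ctsb intervals overlapped (6447 to 7512 and 6371 to 7913 CPM), unlike those of MoMacDC_c1 and MoMacDC_c5.

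The genes that work beside the members were taken from lists of lysosomal and antigen-processing genes. In MoMacDC cells, 8 of 10 genes of MHC class II processing were called higher after GM-CSF, against 8.66% of all genes, and 0 lower, with a median log2 ratio of 1.70 against -0.06 over all genes tested and -0.58 over the members. Cd74, the invariant chain, stood at 8789 against 3049 CPM (2.88), H2-Aa at 4474 against 1364 CPM (3.28) and H2-DMb1, a chain of the peptide-loading factor, at 512 against 124 CPM (4.12). In P-I cells 7 of 8 tested genes of that list were called higher against 4.99% of all genes (median log2 ratio 1.83, members -0.02, all genes -0.10). From P-I to P-IV 5 of 10 were higher against 3.63% of all genes (median 0.996, members -0.54, all genes 0.02), with Cd74 at 5594 and 10628 CPM and H2-Ob, of the H2-O heterodimer, at 3.59 and 37.4 CPM. The MHC II tag was part of the gate of P-IV. Higher RNA of MHC class II genes in P-IV than in P-I is therefore built into that gate and only describes it. H2-DMb1 and H2-DMb2 are alike in sequence, and how reads were shared between them is uncertain.

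Among the inhibitors, the stefins stood far apart between the libraries in granulocytic cells. The genes Stfa1, Stfa2 and Stfa3, cytosolic inhibitors of cysteine cathepsins, stood at 240, 290 and 232 CPM in GM-CSF neutrophils and 24.7, 7.33 and 9.16 CPM in steady-state neutrophils. In granulocytes Stfa2 stood at 103 against 5.17 CPM and Stfa3 at 75.8 against 7.89 CPM. Of this list 4 of 9 genes tested in neutrophils and 4 of 8 in granulocytes were called higher and 0 lower, against 3.62% and 7.29% of all genes called higher. The stefin copies are near-identical, so the split among them is uncertain. Cst3, the secreted cystatin C, stood at 2217 against 2711 CPM in MoMacDC cells (0.818), and Cstb at 145 against 120 CPM (1.21). Spint1, an inhibitor of serine proteases, stood at 96.1 against 9.30 CPM in MoMacDC cells, and at 120 CPM on 167 UMIs against 0.915 CPM on 1 UMI in P-I cells. Inhibitors of lymphocyte granule proteases, Serpinb6b (0.369 against 9.30 CPM) and Serpinb9 (1.4 against 13.7 CPM), were lower in MoMacDC cells, as was Ctsw (0.258 against 6.35 CPM), a cathepsin of cytotoxic lymphocytes. The 43 steady-state cells with NK cell markers were part of that sum, and their part in these 3 values was not tested.

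Among the rest of the lysosome, 5 of 35 other hydrolases were called lower in MoMacDC cells and 0 higher, against 9.46% and 8.66% of all genes (median log2 ratio -0.05), so this share lay near that of all genes. Among them was Lyz2, the lysozyme of myeloid cells, at 4256 against 18351 CPM (0.232), and in P-I and P-IV it stood at 9124 and 1581 CPM (0.173). Lamp1, a main protein of the lysosomal membrane, stood at 438 against 699 CPM in MoMacDC cells (0.627) and at 740 and 308 CPM in P-I and P-IV (0.416). Slc11a1, a metal transporter of phagosomes, was lower in MoMacDC cells (13.9 against 104 CPM). Cd63 was higher there (20.3 against 8.43 CPM). Of the sorting receptors and transcription factors 2 of 10 were called lower in MoMacDC cells, against 9.46% of all genes (median log2 ratio -0.67), among them Sort1 (16.8 against 41.3 CPM), which stood at 40.2 and 5.78 CPM in P-I and P-IV. Tfeb stood at 63.9 against 72.0 CPM in MoMacDC cells (0.889), Tfec at 7.01 against 7.16 CPM and Mitf at 13.5 against 12.8 CPM, none of them called. The subunits of the V-ATPase, the proton pump, gave 0 calls in all 7 contrasts, with 13 to 15 of them tested in each. The shares of all genes called in 1 direction ran from 1.01% to 9.46%, so with so few genes 0 calls lay near them.

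Over 34 groups of at least 100 cells, Ctss and Lgmn had the most alike patterns of any member pair (Pearson r = 0.949 of log2(CPM + 10)), followed by Ctsh and Ctsz (0.888) and by Ctsa and Ctss (0.884). Ctsd ran against Ctsh (-0.689) and Ctsz (-0.675), and Ctse against Ctsc (-0.763). The groups share 2 libraries and the MoMacDC cells enter by cell type and by cluster, so these values are a description. Among 8048 genes, the closest to Ctsb were Zfyve9 (0.958), Ldlrad3 (0.953) and Itgb5 (0.946), and the closest to Ctss were Ptpro (0.961), Ms4a6c (0.957) and AI607873 (0.957). Ctsc was closest to Dusp22 (0.974), Akr1a1 (0.948) and S100a4 (0.942), and Lgmn to Ctss (0.949), Arhgap17 (0.938) and Scarb1 (0.930). Irf5 was among the closest 3 genes of both Ctsa (0.920) and Ctsz (0.925). The others were Fam174a and Slc43a2 for Ctsa, Cnpy3 and Rnase6 for Ctsz, Tmem71, Abtb2 and Sepn1 for Ctsd, and Lmo2, Stx7 and Dna2 for Ctsh. Rnase4, Emilin2 and Emilin1 came closest to Ctsl (0.855, 0.838 and 0.836), and Map4k2, Aqp9 and Pip5k1b to Ctse.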

How the data were processed

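The deposited RNA tables hold raw UMI counts per gene and cell, and the deposited tag table raw counts per antibody tag. Per the submitters' processing notes they were made with Cell Ranger 3.0.2 on mm10 and Seurat 3.6.0. The authors filtered cells on gene number and mitochondrial share, integrated both libraries for clustering and gated the CD115hi subsets on tags. Cell types, clusters, subsets and phases are their deposited labels, and the mitochondrial share is deposited in percent. The RNA counts of the MoMacDC cells were equal in both RNA tables (0 UMIs differed). Counts were summed per group and library with Python 3.11.15, numpy 2.4.6, scipy 1.17.1, pandas 2.3.3 and scanpy 1.11.5, without integration, and figures drawn with matplotlib 3.10.9. Depth was 22358903 and 35007567 UMIs. Intervals and calls were also tested on simulated counts. The members and lists were chosen with earlier results of these data known. Named were all members, up to 4 genes of each list and contrast by size of ratio among those called, with Cst3, Cstb, Cd74, Lamp1, Cd63, Tfeb, Tfec and Mitf, and the 3 genes most like each member. Only some of the genes this rule admits are printed. Alternatives were thinning to 1000 UMIs (seed 20), no called doublets, at most 5% mitochondrial UMIs, another total, equal weight of cells, G1 cells, at least 20 UMIs, 1.5-fold and, chosen after seeing the data, no MoMacDC_c4 cells. The tags of cells outside MoMacDC were not used here, and no protein sequences were compared.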

Additional observations from a re-analysis of the deposited data

How the results depend on the processing

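Of 365 ratios of members recomputed under 7 alternatives, 308 lay inside the interval of the reported ratio, 57 outside it and 0 reversed a call. Only ratios with a call could count as reversed, and some without a call crossed 1. After thinning, Ctsz in neutrophils went from 0.886 to 1.49, Lgmn in P-I cells from 0.908 to 1.43 and Ctse in MoMacDC cells from 0.666 to 1.17. With at most 5% mitochondrial UMIs, Ctsd in P-IV over P-III went from 0.798 to 1.19. Most of the 57 came from thinning to 1000 UMIs (18) and the limit of 5% mitochondrial UMIs (16), and leaving out called doublets gave 0. Counts of members called at least 2-fold moved as follows, and 1.5-fold instead of 2-fold changed them by its own construction. With 1.5-fold, granulocytes had 3 higher, neutrophils 1 higher, MoMacDC cells 4 lower, P-I cells 2 higher and 2 lower, P-III over P-I 1 lower, P-IV over P-III 1 lower and P-IV over P-I 4 lower. With a minimum of 20 UMIs, granulocytes had 1 lower and P-IV over P-III 1 lower, from genes with few UMIs. The shares of all genes lower were then 3.58% and 2.44%. Thinned to 1000 UMIs, neutrophils had 0 lower and P-I cells 0 lower, against 2.44% and 9.21% of all genes. For P-IV over P-I the count stayed at 1 lower, with Ctsd called in place of Ctsl. With equal weight of cells, neutrophils had 1 higher (Ctsl, 2.58 against 1.99 with 0.5 counts added), and 5.10% of all genes were higher. At most 5% mitochondrial UMIs gave 1 lower for P-III over P-I and 0 lower for P-IV over P-I. G1 cells gave 0 lower for P-IV over P-I. In both settings Ctsl had under 50 UMIs for P-IV over P-I. In this order the shares of all genes lower were 2.47%, 3.62% and 3.68%. No phases were used for granulocytes and neutrophils, so the G1 alternative was not run there. Leaving out mitochondrial, ribosomal, S100a8 and S100a9 UMIs from the totals moved the median log2 ratio of all genes in P-I cells from -0.10 to 0.01. With 1.5-fold the shares of all genes were 19.8% higher in granulocytes, 10.7% higher in neutrophils, 18.8% lower in MoMacDC cells, 12.2% higher and 19.1% lower in P-I cells, and 7.64%, 5.87% and 8.80% lower in the 3 subset contrasts in the order above. In neutrophils 4.72% were lower with 20 UMIs against 2.48%, and Ctse (0.461, on 25 and 12 UMIs) was then called lower as well. With 1.5-fold Ctsa (0.658 with 0.5 counts added) was called lower there too, against 10.7% of all genes lower. Depth limits Ctse, Ctsl and the subsets of under 20 cells. No paired analysis was possible because the result comes from no test and each condition has 1 library.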

Other observations

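In steady state, the 29 cells of cluster 13 held Ctsc at 1069 CPM (938 to 1214) and Ctss at 2139 CPM (1952 to 2339), the highest values of both genes among all MoMacDC clusters of the 2 libraries. The Ctss interval overlapped that of the 307 steady-state cells of cluster 2 (2047 to 2169 CPM). The 19 GM-CSF cells of cluster 13 held Ctsc at 566 CPM and Ctss at 1255 CPM.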
